A study of Mus musculus with 8 samples.

Results

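The 10 genes followed here belong to adventitial fibroblasts and were measured in dorsal root ganglia: Pi16, Clec3b, Eln, Dpt, Dcn, Lum, Fbln1, Pdgfra, Cd34 and Fbn1. They were taken by symbol from 25780 counted genes, all 10 were in the files, and all 10 were among the 20235 genes with enough reads to be tested. Eln, Pi16 and Clec3b were picked because they rose with inflammation in the knockout libraries, so their values in that comparison describe the choice and support nothing. The ganglia hold the cell bodies of sensory neurons together with glia, vessels and a connective tissue sheath, and RNA was sequenced from the whole tissue. In the knockout mice, called iKO (labelled Avil-iCreERT2/AJwo, G9aflox/flox), the floxed gene Ehmt2 encodes G9a, a methyltransferase of histone H3 lysine 9. Cre was inducible and driven from Avil, a gene known for its activity in sensory neurons. The wild-type mice, called WT, were littermates without Cre, and the labels do not state whether they carried floxed alleles. Each genotype was given vehicle or complete Freund's adjuvant (CFA), which inflames the injected paw, in the left paw, and ganglia were taken at 14 days. Each of the 4 groups had 2 libraries, and the labels do not say whether a library is 1 animal or a pool, which side or level the ganglia came from, or the age of the mice.

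Fibroblasts of the vessel adventitia and of tissue sheaths build the connective tissue around vessels and nerves. Pi16 and Clec3b, a peptidase inhibitor and the plasminogen-binding protein tetranectin, mark a fibroblast state found around vessels in many tissues. Elastin, the product of Eln, is laid onto microfibrils of fibrillin 1 (Fbn1) with the help of fibulins, microfibril proteins and lysyl oxidases. Decorin (Dcn), lumican (Lum) and dermatopontin (Dpt) bind collagen fibrils, and Pdgfra is the receptor for platelet-derived growth factor that marks fibroblasts broadly. Cd34, a sialomucin, is carried by fibroblasts and also by endothelium.

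RefSeq promoter windows (assembly GRCm38.p6, which differs from the assembly of the counts) were matched by symbol for 6 of the 10 genes. The 250 bases before the start are shown for Pi16, Dpt and Fbln1, 3 of the genes that stood highest in the inflamed knockout. Capitals mark matches, on either strand, to the box with the letters CCAAT, to the E-box given by CANNTG, to the TATA box read as TATAAA, to the GC box spelled GGGCGG or to the AP-1 motif written TGANTCA.
Pi16, chr17:29318632-29318881, plus strand: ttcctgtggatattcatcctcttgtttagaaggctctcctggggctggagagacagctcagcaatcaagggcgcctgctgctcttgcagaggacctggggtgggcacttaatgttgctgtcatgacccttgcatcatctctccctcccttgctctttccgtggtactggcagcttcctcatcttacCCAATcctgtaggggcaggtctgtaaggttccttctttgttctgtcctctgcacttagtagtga
Dpt, chr1:164796413-164796662, plus strand: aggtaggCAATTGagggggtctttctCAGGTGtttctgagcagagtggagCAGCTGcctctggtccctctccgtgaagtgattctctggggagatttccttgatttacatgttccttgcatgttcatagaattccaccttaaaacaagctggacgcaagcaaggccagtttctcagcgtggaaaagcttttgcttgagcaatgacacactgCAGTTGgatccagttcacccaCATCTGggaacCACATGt
Fbln1, chr15:85205699-85205948, plus strand: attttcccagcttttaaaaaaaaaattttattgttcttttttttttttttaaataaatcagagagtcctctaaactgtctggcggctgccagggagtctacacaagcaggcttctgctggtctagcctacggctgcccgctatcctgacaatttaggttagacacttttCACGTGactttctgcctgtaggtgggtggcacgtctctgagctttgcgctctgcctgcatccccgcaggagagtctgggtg

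The Pi16 window held 1 CCAAT match, the Dpt window 6 E-box matches and the Fbln1 window 1 E-box match, and none of these matches overlapped another. A second Fbln1 window, with a start slightly downstream and not shown, held 1 GC box and 2 E-box matches, 1 of them the same as in the window shown. Among 32851 windows of the same length, 33.8% held the CCAAT box, 66.2% an E-box, 12.4% the TATA box, 32.7% the GC box and 6.75% the AP-1 motif. No motif was found in all 3 of the windows shown. The matches describe letters only and say nothing of which factor binds.

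The libraries held 26312614 to 42971823 reads. Ehmt2 was at 61.3 to 74.4 CPM (normalised read counts, scaled for depth and composition) in WT and at 31.6 to 45.0 CPM in iKO. Both WT vehicle libraries stood apart: they held 1323 and 1187 CPM of the nuclear RNA Malat1, which reached at most 57.0 CPM elsewhere, and the summed level of 10 lymphocyte genes was at 878 and 2135 CPM against at most 53.6 CPM. WT vehicle library 1 also held 594 CPM of skeletal muscle genes, against at most 17.2 CPM in the others. WT CFA library 2 had 12.1% mitochondrial reads, against 1.34% to 6.09% elsewhere. Every comparison with WT vehicle, and every comparison with WT CFA, rests on such libraries. In whole ganglia, fewer cells of a type and less RNA per cell cannot be told apart.

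The defining fibroblast genes were present in all libraries, with decorin at 450 to 1248 CPM and Pdgfra at 13.5 to 31.9 CPM, except that dermatopontin had 0 reads in WT CFA library 2. Levels of different genes were compared per kilobase of merged exons in the GENCODE M21 annotation, which may not be the one used for counting. In WT vehicle the order was Dcn (99.9 ± 20.0 CPM per kilobase, mean ± SD, n = 2), Lum (47.5 ± 16.4), Cd34 (3.70 ± 0.20), Fbn1 (3.16 ± 0.63), Pdgfra (1.95 ± 0.38), Clec3b (1.73 ± 0.23), Eln (0.852 ± 0.012), Fbln1 (0.650 ± 0.084), Pi16 (0.386 ± 0.070) and Dpt (0.329 ± 0.22). Libraries of Cd34 and Fbn1, of Pdgfra and Clec3b, and of Pi16 and Dpt overlapped on this scale. In iKO CFA Clec3b ranked below Dcn and Lum alone, at 15.0 ± 0.86 CPM per kilobase, Fbln1 was at 6.73 ± 0.18, Pi16 at 2.69 ± 0.12 and Eln at 2.37 ± 0.11. There Clec3b lay above Cd34 (5.30 ± 0.48) and Fbn1 (3.09 ± 0.36), both of which it lay below in WT vehicle.

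**Figure D1:**
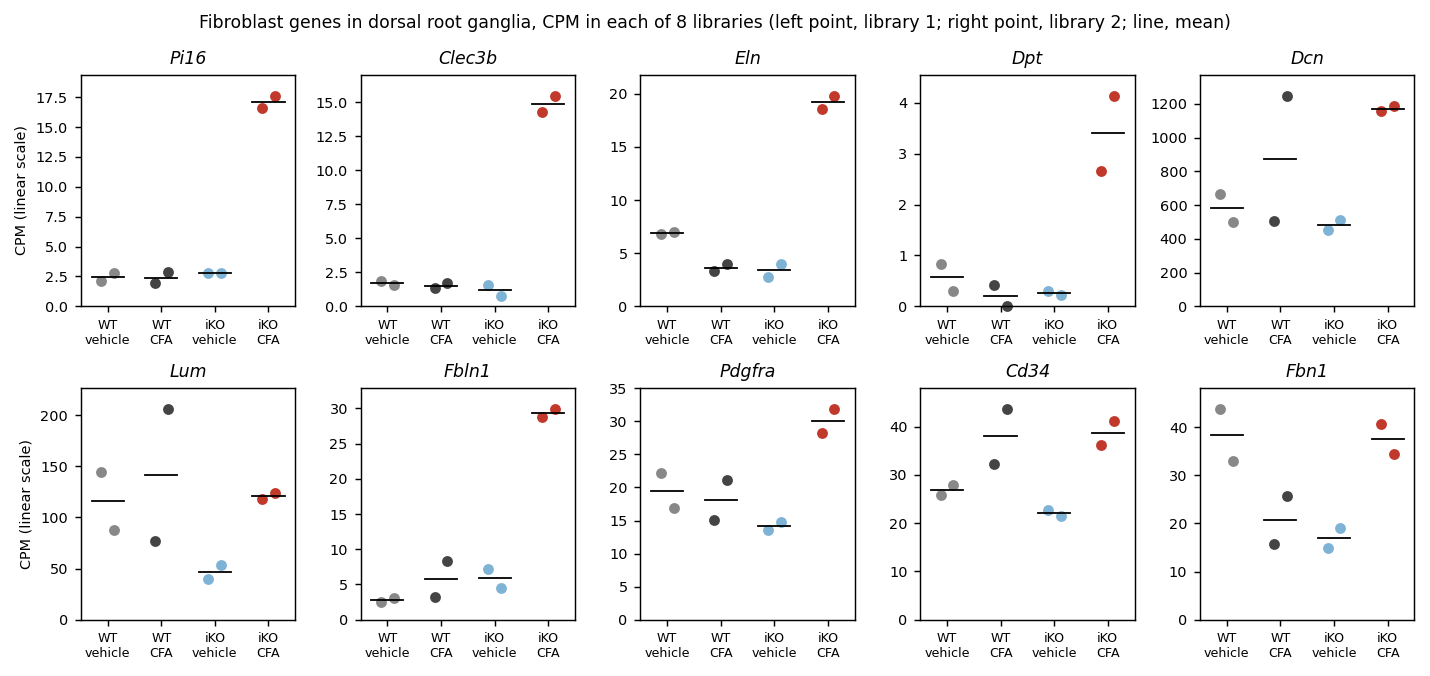
CPM of the 10 fibroblast genes (each panel its own linear axis from 0) in each of the 8 libraries, with a line at the mean of the 2 libraries of a group. Pi16, Clec3b, Eln, Dpt and Fbln1 lie more than 2-fold higher in both iKO CFA libraries than in any other library, whereas Dcn and Lum are highest in WT CFA library 2.

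Pi16 was low and nearly level in 3 groups and high in iKO CFA. It was at 2.14 and 2.77 CPM under vehicle in WT, 1.95 and 2.84 CPM under CFA in WT, 2.79 and 2.78 CPM under vehicle in iKO and 16.6 and 17.6 CPM under CFA in iKO. The lower iKO CFA library was 5.83 times the highest of the 6 others. Clec3b was at 1.88 and 1.55 CPM under vehicle in WT, 1.34 and 1.71 CPM under CFA in WT, 1.59 and 0.775 CPM under vehicle in iKO and 14.3 and 15.5 CPM under CFA in iKO. Its lower iKO CFA library was 7.61 times the highest of the others, the widest gap among the 10 genes. These levels rest on 64 to 114 Pi16 reads and 27 to 65 Clec3b reads per library outside iKO CFA, so the low groups are measured with few reads.

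Eln had a different starting point. It was at 6.84 and 6.97 CPM under vehicle in WT, 3.31 and 3.97 CPM under CFA in WT, 2.77 and 4.02 CPM under vehicle in iKO and 18.6 and 19.8 CPM under CFA in iKO. The WT vehicle libraries thus lay above those of WT CFA and iKO vehicle, which overlapped each other, and iKO CFA lay above all. Fbn1, whose microfibrils carry elastin, was at 43.8 and 33.0 CPM under vehicle in WT, 15.7 and 25.6 CPM under CFA in WT, 14.9 and 18.9 CPM under vehicle in iKO and 40.6 and 34.4 CPM under CFA in iKO. Fbn1 had the same pair of low groups, but its iKO CFA libraries overlapped those of WT vehicle.

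Fbln1, a fibulin of basement membranes and elastic fibres, was at 2.58 and 3.10 CPM under vehicle in WT, 3.26 and 8.32 CPM under CFA in WT, 7.26 and 4.51 CPM under vehicle in iKO and 28.8 and 29.9 CPM under CFA in iKO. Dpt was at 0.838 and 0.298 CPM under vehicle in WT, 0.427 and 0 CPM under CFA in WT, 0.294 and 0.230 CPM under vehicle in iKO and 2.65 and 4.14 CPM under CFA in iKO. The 0 in WT CFA library 2 allows up to 0.103 CPM, the level of 3 reads, counting error only, and Dpt had at most 25 reads in any library outside iKO CFA. Both genes were therefore high in iKO CFA alone, Dpt from a level near the limit of detection.

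The broadly expressed fibroblast genes followed another order. Dcn was at 666 and 501 CPM under vehicle in WT, 503 and 1248 CPM under CFA in WT, 450 and 511 CPM under vehicle in iKO and 1155 and 1188 CPM under CFA in iKO. Lum was at 145 and 87.9 CPM under vehicle in WT, 76.5 and 206 CPM under CFA in WT, 40.2 and 53.5 CPM under vehicle in iKO and 118 and 124 CPM under CFA in iKO. WT CFA library 2 had the highest level of both. Pdgfra was at 22.2 and 16.9, 15.0 and 21.1, 13.5 and 14.8, and 28.2 and 31.9 CPM in the same order of groups, highest in iKO CFA without a wide gap. Cd34 was at 25.9 and 28.0, 32.2 and 43.7, 22.7 and 21.5, and 36.2 and 41.1 CPM, with both CFA groups above both vehicle groups.

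The 2 libraries inside WT CFA differed more for some of the genes than for others. Library 2 was above library 1 by 2.48-fold for Dcn, 2.69-fold for Lum and 2.55-fold for Fbln1. For Pi16 the ratio was 1.46, for Pdgfra 1.41, for Cd34 1.35, for Clec3b 1.28 and for Eln 1.20, with Fbn1 between at 1.64. Relative to decorin in the same library, Pi16 was at 2.28 reads per 1000 Dcn reads in WT CFA library 2, 3.22 to 6.21 in the other 5 libraries outside iKO CFA, and 14.3 and 14.8 in iKO CFA. Eln was at 3.18 in WT CFA library 2, 6.16 to 13.9 in the other 5, and 16.1 and 16.7 in iKO CFA. Clec3b was at 1.37 in WT CFA library 2, 1.52 to 3.54 in the other 5, and 12.4 and 13.0 in iKO CFA. On this scale the 3 genes were lowest in WT CFA library 2 and highest in both iKO CFA libraries, while Pdgfra was at 24.4 and 26.8 in iKO CFA, inside the 16.9 to 33.7 of the other libraries. Lum was at 102 and 105 reads per 1000 Dcn reads in iKO CFA, near the 89.3 and 105 of iKO vehicle and below the 152 to 217 of the WT libraries. Fbln1 was at 25.0 and 25.2 in iKO CFA, 16.1 and 8.82 in iKO vehicle and 3.88 to 6.66 in WT, so on this scale every iKO library lay above every WT library.

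**Figure D2:**
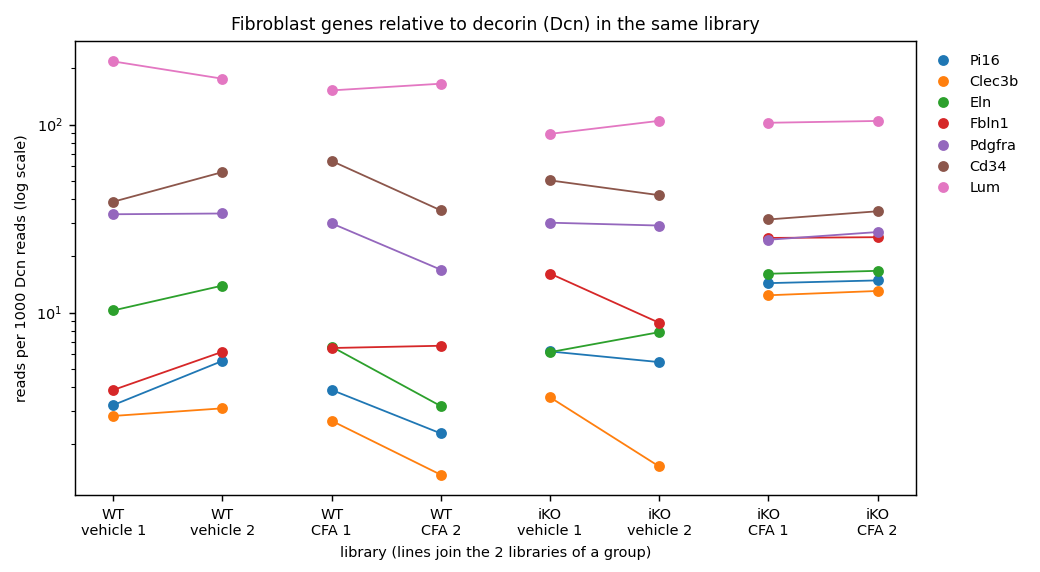
Reads of 7 fibroblast genes per 1000 Dcn reads in the same library (log axis), with lines joining the 2 libraries of a group. Pi16, Clec3b and Eln are lowest in WT CFA library 2 and highest in iKO CFA, whereas Pdgfra in iKO CFA stays within the range of the other libraries.

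CFA against vehicle in WT asks how an inflamed paw alters these genes in mice with G9a, and it was not used to choose them. Eln was lower under CFA, with a log2 change of -0.92 ± 0.26 (standard error) and an adjusted p of 0.0422 in edgeR's quasi-likelihood test, with both CFA libraries below both vehicle libraries. It was the only one of the 10 genes past the threshold of 0.05. Over all genes 16.8% passed, 8.12% as higher and 8.71% as lower, so 1 of 10 is no more than the background. Fbn1 was lower in both CFA libraries too, at -0.90 ± 0.27, but did not pass (adjusted p = 0.0552).

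The other 8 genes did not pass in WT. Fbln1 was at 1.02 ± 0.43 (adjusted p = 0.132) and Cd34 at 0.49 ± 0.20 (0.116), each with the vehicle libraries below the CFA libraries. Dcn was at 0.59 ± 0.37 (0.306), Lum at 0.28 ± 0.42 (0.685), Pdgfra at -0.11 ± 0.23 (0.774), Pi16 at -0.04 ± 0.29 (0.937), Clec3b at -0.17 ± 0.38 (0.793) and Dpt at -1.32 ± 1.08 (0.431). For Pi16 the 95% interval ran from -0.70 to 0.61 and for Clec3b from -1.03 to 0.69, so a change of up to these sizes cannot be told from 0 here. Both libraries of a group lay apart in 2 genes as higher and 2 as lower, against 25.3% and 30.8% of all genes. The median change of the 10 genes was -0.08, against -0.03 over all genes.

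These WT values depended on single libraries. For Eln the adjusted p was 0.201 without WT vehicle library 1, 0.136 without WT vehicle library 2, 0.0679 and 0.0689 without an iKO vehicle library, 0.0934 and 0.0907 without an iKO CFA library, and 0.170 with only the WT libraries fitted, so each of these ended the call, with a change between -1.06 and -0.81 in all settings tried. Without WT CFA library 1, Dcn (1.09, adjusted p = 0.00101), Lum (0.82, 0.0255), Fbln1 (1.54, 0.00212) and Cd34 (0.69, 0.00589) passed as higher and Dpt as lower (0.0105). Without WT CFA library 2, Fbn1 passed at -1.29 (adjusted p = 0.00229), and Dcn was at -0.21 and Lum at -0.60.

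CFA against vehicle in iKO is the comparison from which Eln, Pi16 and Clec3b were chosen, so the values are given without a test. The log2 changes were 3.64 ± 0.39 for Clec3b, 2.61 ± 0.29 for Pi16 and 2.50 ± 0.27 for Eln, or 12.6-fold, 6.13-fold and 5.66-fold between group means. Dpt was at 3.67 ± 1.08, Fbln1 at 2.32 ± 0.42, Lum at 1.37 ± 0.43, Dcn at 1.29 ± 0.38, Fbn1 at 1.15 ± 0.27, Pdgfra at 1.08 ± 0.23 and Cd34 at 0.80 ± 0.20. In all 10 genes both CFA libraries lay above the vehicle libraries, as in 33.9% of all genes, while 35.6% had both below. The median over the 10 genes was 1.85, against -0.00 over all genes. This median and the count of all 10 include Eln, Pi16 and Clec3b, and nothing is read from their part in either.

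Over all 20235 genes, 8 were past the threshold in iKO by edgeR (0.0395%; 0.0395% as higher and 0% as lower). They include the chosen 3, whose place there follows from the choice, and nothing is read from it. Of the other 5, the endothelial Vwf rose by 1.71 ± 0.17 and Cfd, the adipsin of fat cells, by 7.11 ± 0.80 (adjusted p = 0.0382 for both). Both calls were lost without either WT vehicle library or any iKO library (adjusted p = 0.110 to 0.394). The last 3, 2610507I01Rik, Erdr1 and Cd177, are named after their values were seen. At an unadjusted p under 0.05 there were 5791 genes, and DESeq2 called 3449, 1591 higher and 1858 lower. Across all settings tried the change was 2.59 to 2.65 for Pi16, 3.21 to 4.25 for Clec3b and 2.25 to 2.78 for Eln. These ranges describe genes chosen on this contrast and support nothing.

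**Figure D3:**
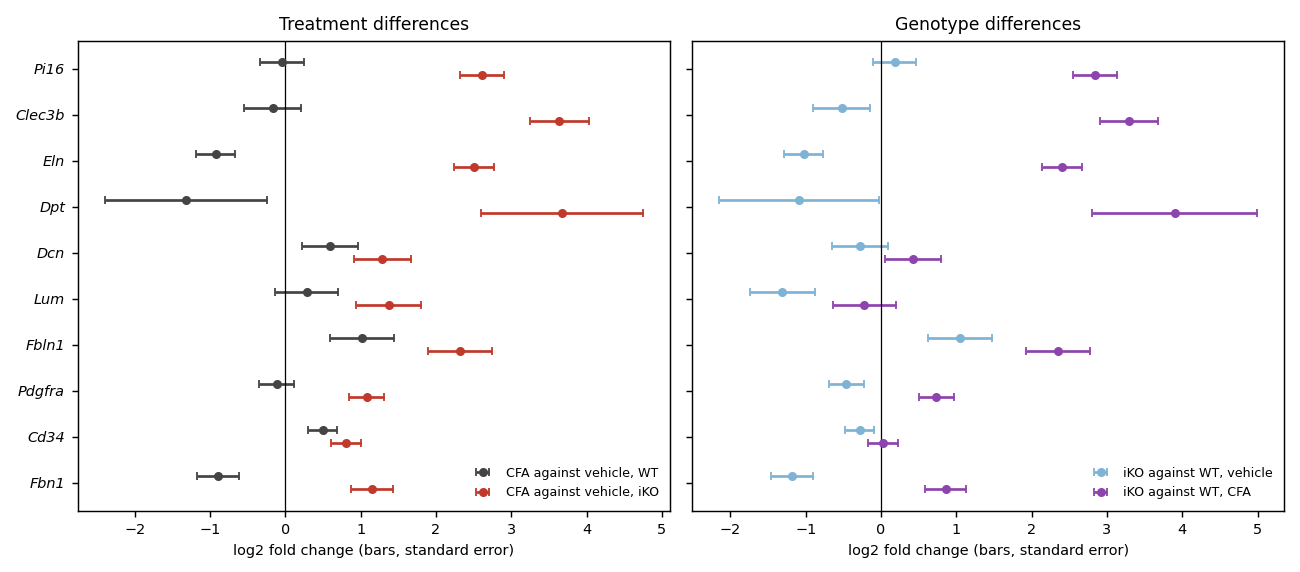
Log2 fold changes (points) with standard errors (bars) of the 10 genes for CFA against vehicle in each genotype (left) and for iKO against WT under each treatment (right). Eln and Fbn1 lie below 0 with CFA in WT and above 0 in iKO, and for Lum and Cd34 the bars of iKO against WT under CFA cross 0.

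Across all libraries, 6 of the 10 genes (Pi16, Clec3b, Eln, Dpt, Fbln1 and Pdgfra) had both iKO CFA libraries above all 6 others, as did 7.56% of all genes. In 5 of them, all but Pdgfra, the gap was more than 2-fold, as in 0.979% of all genes. Both counts include Eln, Pi16 and Clec3b, which were chosen on iKO libraries, and nothing is read from their place there. Without these genes the first count holds Dpt, Fbln1 and Pdgfra, and the second Dpt and Fbln1.

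iKO against WT under vehicle asks how loss of G9a in sensory neurons bears on these genes without inflammation, and it shares the WT vehicle libraries with the comparison of CFA in WT. Fbn1 was lower in iKO by -1.18 ± 0.27 on the log2 scale (adjusted p = 0.0230, edgeR), with both iKO libraries below both WT libraries. Of the 7 genes tested it alone passed, against 17.6% of all genes, 8.28% as higher and 9.33% as lower. Eln was at -1.03 ± 0.26, Pi16 at 0.18 ± 0.29 and Clec3b at -0.52 ± 0.38, given without a test because these genes were chosen in iKO libraries.

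Lum was at -1.31 ± 0.43 under vehicle (adjusted p = 0.0664), Fbln1 at 1.05 ± 0.42 (0.116) and Pdgfra at -0.46 ± 0.23 (0.192), none past the threshold. Dpt was at -1.09 ± 1.06 (0.499), Dcn at -0.28 ± 0.37 (0.625) and Cd34 at -0.28 ± 0.20 (0.336). Both iKO libraries lay above both WT libraries for Pi16 and Fbln1 and below them for 6 genes (Eln, Dpt, Lum, Pdgfra, Cd34 and Fbn1), against 38.9% and 36.5% of all genes. Leaving out WT vehicle library 1 (adjusted p = 0.198) or one of the iKO vehicle libraries (0.174 and 0.101) ended the Fbn1 call. Without WT CFA library 1 or 2, Lum (0.000876 and 0.000799) and Fbln1 (0.00641 and 0.00661) passed, and Pdgfra passed without WT CFA library 1 (0.0493).

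iKO against WT under CFA compares the genotypes in inflamed mice, and shares its libraries with both comparisons of CFA against vehicle. Fbln1 was higher in iKO by 2.35 ± 0.42 (adjusted p = 0.0338, edgeR), the only one of the 7 tested genes to pass, where 1.70% of all genes passed, 1.50% as higher and 0.208% as lower. Clec3b was at 3.29 ± 0.39, Pi16 at 2.84 ± 0.29 and Eln at 2.40 ± 0.26, with no test. Dpt was at 3.90 ± 1.10 and did not pass (adjusted p = 0.142), nor did Fbn1 at 0.86 ± 0.27 (0.185) and Pdgfra at 0.74 ± 0.23 (0.184).

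Under CFA, Dcn (0.42 ± 0.37, adjusted p = 0.640), Lum (-0.22 ± 0.42, 0.852) and Cd34 (0.03 ± 0.20, 0.973) had overlapping genotypes. The 95% interval for Cd34 ran from -0.42 to 0.47, and for Lum from -1.18 to 0.74. The 7 other genes had both iKO libraries above both WT libraries and 0 had them below, against 21.6% and 16.7% of all genes. They include Pi16, Clec3b and Eln, chosen in iKO libraries, and nothing is read from the place of these genes. The rest were Dpt, Fbln1, Pdgfra and Fbn1. The Fbln1 call ended when WT vehicle library 1 (adjusted p = 0.0835) or 2 (0.0867), both of them (0.104), or iKO CFA library 1 (0.139) or 2 (0.190) were omitted. With only the CFA libraries fitted it was not called either (0.250), nor was any companion gene named below for this comparison. Without WT CFA library 2 its difference was 3.16 (1.76e-04), and Dcn (1.21, 0.00130), Pdgfra (0.99, 0.00590), Fbn1 (1.25, 0.00250) and Dpt (2.97, 0.0170) passed as well. Without WT CFA library 1 Dpt also passed (0.00825).

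The interaction, the CFA response in iKO minus that in WT, contains the comparison that chose the genes and is described only. It was 3.81 ± 0.53 for Clec3b, 3.43 ± 0.37 for Eln, 2.66 ± 0.40 for Pi16 and 2.05 ± 0.39 for Fbn1. Over all genes 9.36% passed, 6.19% as higher and 3.17% as lower, and no calls are read for the 10 genes. Dpt was at 4.995 ± 1.51, Fbln1 at 1.30 ± 0.59, Pdgfra at 1.20 ± 0.33, Lum at 1.09 ± 0.60, Dcn at 0.70 ± 0.52 and Cd34 at 0.31 ± 0.28.

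Other genes of elastic fibre assembly, 26 microfibril proteins, crosslinkers and linking proteins, did not move as one group. With CFA in WT 1 was higher and 5 lower by edgeR, with a median of -0.31. Adamts10, a protease that binds fibrillin microfibrils, was lower by -2.44 ± 0.29 (adjusted p = 0.00236), while Fbln5, which anchors elastin to cells, rose by 0.86 ± 0.22 (0.0299). The Adamts10 call held without each library, and the Fbln5 call was lost without any WT vehicle or iKO library (adjusted p = 0.0641 to 0.182). Under vehicle 2 were higher and 5 lower in iKO than in WT, Adamts10 again lower at -3.50 ± 0.30 (6.25e-04). Adamts10 was high in WT vehicle alone, at 17.8 and 16.5 CPM against 1.18 to 4.33 CPM elsewhere.

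In iKO, CFA moved 0 of the 26 past the threshold by edgeR, with 13 higher and 0 lower at an unadjusted p under 0.05 and 11 higher by DESeq2. The median change was 0.90. Under CFA 4 were higher and 0 lower in iKO than in WT: Mfap4 (3.92 ± 0.57, adjusted p = 0.0140) and Emilin2 (2.08 ± 0.40, 0.0435), both proteins of the elastic fibre surface, the crosslinking enzyme Loxl1 (1.75 ± 0.26, 0.0166) and Ltbp4 (1.58 ± 0.26, 0.0243), which guides elastin deposition. Mfap4 was at 0.507 and 0.205 CPM under CFA in WT and 6.63 and 4.44 CPM under CFA in iKO, and Loxl1 at 3.07 and 3.97 CPM against 10.97 and 12.6 CPM. All 4 calls were lost without iKO CFA library 1 (adjusted p = 0.0936 to 0.182) or 2 (0.0646 to 0.236), and those of Emilin2 and Ltbp4 also without either WT vehicle library (0.0655 to 0.0993). Emilin2 was further lost without iKO vehicle library 1 (0.0749) or 2 (0.0756) and Ltbp4 without iKO vehicle library 1 (0.0502). Fbln5 was at 125 and 176 CPM under CFA in WT and 133 and 165 CPM under CFA in iKO, a difference of -0.01 ± 0.21 that did not pass (0.989).

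Proteases that cut elastin and their inhibitors (14 genes tested) were split with CFA in WT, 1 higher and 4 lower, with a median of 0.21. Ctsl, a lysosomal protease, rose by 1.40 ± 0.23 (adjusted p = 0.00739) and Ctss, a protease of macrophages, was lower, at -2.69 ± 0.46 (0.00890). Both were lost without WT vehicle library 1 (0.0720 and 0.0883). Under vehicle 2 were higher and 4 lower in iKO, and under CFA 1 was higher and 0 lower. That 1 gene, Mmp9, a gelatinase of granulocytes and macrophages that also cuts elastin, was at 1.18 and 4.86 CPM under CFA in WT and 55.0 and 59.6 CPM under CFA in iKO (4.27 ± 0.61, adjusted p = 0.0140). Its call ended without iKO CFA library 1 (0.0657) or 2 (0.0884) or both WT vehicle libraries (0.0544). Elane and Ctsg, proteases of granulocytes, were also more than 2-fold above all 6 other libraries in both iKO CFA libraries and are named after their values were seen.

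Further markers of adventitial and universal fibroblasts (29 genes tested) changed in both directions in WT. With CFA 4 rose and 5 fell, with a median of -0.28: Pcolce2, which helps collagen maturation, rose by 1.12 ± 0.18 (adjusted p = 0.00721) and Serpinf1 by 1.06 ± 0.16 (0.00659), while the complement gene C3 was at -4.09 ± 0.52 (0.00323) and the surface marker Ly6a at -2.40 ± 0.33 (0.00453). The 2 WT vehicle libraries had 167 and 110 CPM of C3, and the 6 others 5.05 to 40.4 CPM, so it and Eln were both high in WT vehicle, but C3 stayed below that level in iKO CFA. The calls of Pcolce2 and Serpinf1 were lost without WT vehicle library 1 (0.0970 and 0.0782). Under vehicle 3 were higher and 8 lower in iKO than in WT.

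Under CFA 3 of the 29 were higher in iKO and 0 lower by edgeR, and 9 higher and 1 lower by DESeq2. Of the 29 differences 24 were positive and 5 negative, down to -0.64. Sfrp4, a secreted Wnt modulator, was at 3.77 and 8.52 CPM under CFA in WT and 54.2 and 63.6 CPM under CFA in iKO (3.27 ± 0.37, adjusted p = 0.00423), and kept its call without each library. Cd248, a surface protein of Pi16-type fibroblasts, was at 2.54 and 3.22 CPM against 9.04 and 11.9 CPM (1.87 ± 0.33, 0.0308), a call lost without any library other than those of WT CFA (0.0543 to 0.252). Dpp4, another marker of that fibroblast state, was at 1.12 and 3.25 CPM against 10.5 and 12.7 CPM (2.41 ± 0.52, adjusted p = 0.0631) and did not pass. It was at 6.33 and 6.34 CPM under vehicle in WT and 4.36 and 2.07 CPM under vehicle in iKO. Cd55, of the same list, was lower, at 600 and 582 CPM under CFA in WT against 382 and 375 CPM under CFA in iKO. Dpp4 and Cd55 fall outside the naming rule and were chosen after their values were seen.

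Genes that act beside decorin and lumican, 9 small leucine-rich proteoglycans tested, had 0 calls with CFA in WT by edgeR, 1 higher at an unadjusted p under 0.05 and 0 by DESeq2. Under CFA 2 were higher in iKO than in WT: Fmod, which shapes collagen fibrils, with 2.08 and 5.41 CPM in WT against 29.7 and 41.1 CPM in iKO (3.25 ± 0.54, adjusted p = 0.0243), and Bgn, with 35.7 and 67.9 CPM in WT against 146 and 164 CPM in iKO (1.58 ± 0.28, 0.0316). Both calls were lost without iKO CFA library 1 (0.0889 and 0.130) or 2 (0.163 and 0.221). Bgn was also lost without either WT vehicle library (0.0853 and 0.0877) or iKO vehicle library (0.0622 and 0.0611). Of 13 fibroblast collagens, 5 fell with CFA in WT and 0 rose, with Col5a3 at -2.24 ± 0.24 (adjusted p = 0.00169). Under vehicle 6 were lower in iKO, and under CFA 3 were higher, led by Col12a1 (2.21 ± 0.24, 0.00362). The calls of Col5a3 and Col12a1 held without each library, though Col5a3 was high in WT vehicle alone, at 195 and 123 CPM against 23.1 to 39.3 CPM.

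The ligands and the second receptor that act with Pdgfra did not pass in any comparison. Of 5 further genes of the PDGF system, 0 passed in any of the 5 comparisons by edgeR, and 0 by DESeq2, with 1 at an unadjusted p under 0.05 for iKO against WT under CFA and 0 in the others. Their summed level was 91.4 to 119 CPM in all libraries. Of 19 TGF-beta genes and matrix targets, 6 fell with CFA in WT, 6 were lower in iKO under vehicle and 2 were higher in iKO under CFA. The last were Thbs1 (2.08 ± 0.31, adjusted p = 0.0146) and Fn1 (1.95 ± 0.38, 0.0438), matrix glycoproteins, and Thbs1 was highest in WT vehicle, at 137 and 73.6 CPM against 55.9 and 55.0 CPM under CFA in iKO. The Thbs1 call ended without iKO CFA library 1 (0.0889) or 2 (0.0985), and that of Fn1 without any WT vehicle or iKO library (0.0553 to 0.256). In iKO, CFA gave 0 calls by edgeR in the TGF-beta, proteoglycan, collagen, breakdown and adventitial lists, of 19, 9, 13, 14 and 29 genes tested. The genes higher at an unadjusted p under 0.05 numbered 9, 8, 13, 9 and 19, and by DESeq2 5, 6, 11, 7 and 16. By each measure 1 TGF-beta and 1 breakdown gene were lower. Of all 20235 genes, 5791 had an unadjusted p under 0.05 in either direction, and DESeq2 called 1591 higher and 1858 lower. Of 16 fibroblast transcription factors 3 were higher and 0 lower with CFA in WT, and 2 higher and 1 lower in iKO under vehicle. For iKO against WT under CFA 0 passed by edgeR, with 6 higher and 1 lower at an unadjusted p under 0.05 and 1 higher by DESeq2.

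Markers of some other cells were also high in iKO CFA, and those of others were not. The 10 meningeal fibroblast genes, markers of the sheaths around brain, cord and roots, summed to 103 and 119 CPM under vehicle in WT, 131 and 563 CPM under CFA in WT, 254 and 154 CPM under vehicle in iKO and 1861 and 2320 CPM under CFA in iKO. All 10 had both iKO CFA libraries above all 6 others, and 71.3% of the sum was Ptgds, a prostaglandin synthase that is not specific to meninges. Without Ptgds the sum was 474 and 530.2 CPM under CFA in iKO and 66.4 to 172 CPM elsewhere. Of the 10, 2 were higher with CFA in WT, 1 was higher in iKO under vehicle and 2 were higher in iKO under CFA. With CFA in iKO 0 passed by edgeR, 10 were higher at an unadjusted p under 0.05 and 9 by DESeq2. The transporter Slc47a1 (3.68 ± 0.62, adjusted p = 0.0263) and the growth factor Igf2 (3.01 ± 0.51, 0.0268) passed for iKO against WT under CFA. Both were lost without either WT vehicle library (0.0714 to 0.0765) or either iKO CFA library (0.0936 to 0.153).

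Fat, vessel and glial markers also differed between these libraries. Of 11 listed adipocyte genes 10 were in the files, and their sum was 74.8 and 103 CPM under CFA in iKO against 9.58 to 28.1 CPM elsewhere, with Plin1 and Retn at 0 reads in 3 libraries each and Adig in 5. Adipoq, which defines fat cells, was at 4.19 and 6.28 CPM under CFA in iKO and 0.0245 to 1.68 CPM elsewhere. The 15 endothelial genes summed to 378 and 400 CPM under CFA in iKO and 164 to 274 CPM elsewhere. Myelinating Schwann cell genes (9) summed to 16116 and 17309 CPM under CFA in iKO, 19309 CPM in WT CFA library 2 and 6857 to 12573 CPM in the other 5 libraries. Neuron genes (12) had their lowest sum in WT vehicle, with 10849 and 13985 CPM. It reached 22354 and 15471 CPM under CFA in WT and 21999 and 22539 CPM under vehicle in iKO. Under CFA in iKO the sum came to 14378 and 14118 CPM. Single genes did not all follow the sum. Tubb3, Uchl1, Nefl and Prph had both WT vehicle libraries below both iKO CFA libraries. Avil, Scn9a, Nefm and Nefh had them above, and Rbfox3, Elavl4, Isl1 and Snap25 overlapped. For Avil, iKO CFA held 221 and 175 CPM, WT vehicle 509 and 662 CPM. The part of these differences in the values of the fibroblast genes was not tested.

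The 8 perineurial genes, markers of the layered sheath of nerve bundles, summed to 383 and 386 CPM under CFA in iKO and 253 to 435 CPM elsewhere, with 4 of 8 above all 6 other libraries. The 6 endoneurial genes summed to 95.1 and 96.0 CPM under CFA in iKO and 126 to 189 CPM elsewhere, of which 70.9% was Etv1, a factor also present in neurons. Smooth muscle and pericyte genes (14) summed to 454 and 457 CPM under CFA in iKO and 293 to 402 CPM elsewhere. Macrophage genes (12) summed to 332 and 359 CPM under CFA in iKO, 113 and 142 CPM under vehicle in iKO and 144 to 531 CPM in WT.

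**Figure D4:**
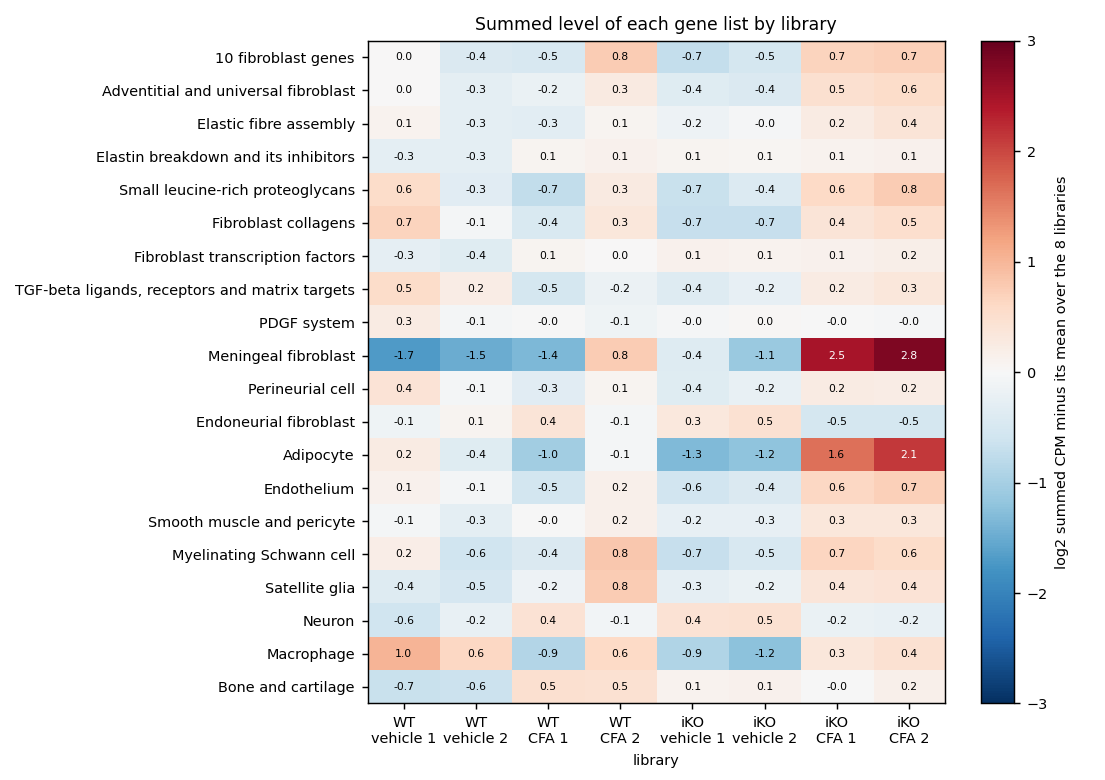
Summed CPM of the gene lists as log2 minus its mean over the 8 libraries (colour and number), with lists in rows and libraries in columns. Skeletal muscle genes (5.10 in WT vehicle library 1) and lymphocyte genes (5.33 and 4.05 in WT vehicle) are not plotted. Meningeal and adipocyte lists are highest in both iKO CFA libraries, and the 10 fibroblast genes, small leucine-rich proteoglycans and Schwann cell genes are high there and raised in WT CFA library 2 over library 1.

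The genes whose pattern over the 8 libraries lay nearest to each of the chosen 3 were found by the root mean square difference of log2 CPM, each centred on its mean, over 12856 genes, predicted gene models left out, with a mean log2 CPM of at least 1. Nearest to Eln were Emilin2 (0.29), Vwf (0.33), Itgam (0.38), Sox18 (0.38) and Trp53i11 (0.38). Vwf, the von Willebrand factor of endothelium, was at 35.5 and 29.7 CPM under vehicle in WT, 17.5 and 18.2 CPM under CFA in WT, 21.5 and 21.2 CPM under vehicle in iKO and 67.0 and 72.9 CPM under CFA in iKO. Like Eln it was higher in WT vehicle than in WT CFA and iKO vehicle.

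Among the nearest to Pi16 were Bmp4 (0.26), Plvap (0.27), Sfrp4 (0.29) and Cd248 (0.39). Plvap, a protein of fenestrated endothelium, was at 7.10 and 7.09 CPM under vehicle in WT, 4.51 and 10.2 CPM under CFA in WT, 9.04 and 12.2 CPM under vehicle in iKO and 44.1 and 53.97 CPM under CFA in iKO. Nearest to Clec3b were the haptoglobin gene Hp (0.28), Pi16 (0.49), the fatty acid carrier Fabp4 (0.49), Bmp4 (0.55) and Pgm5 (0.59). Among the 10 genes themselves the closest pairs were Dcn with Pdgfra (0.30) and Pdgfra with Cd34 (0.30), and Pi16 with Fbln1 stood at 0.44. These distances describe 8 libraries that share their groups and depth, and carry no test.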

How the data were processed

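Counts of reads per gene, as the authors deposited them, were whole numbers with no scaling. Per the submitters' processing notes, reads were aligned with HISAT2 2.2.1 to GRCm39 (mm39), handled with SAMtools 1.19.2 and counted with featureCounts 2.0.6; the annotation and strand setting are not given in the sources used here, so reads of overlapping genes may be shared. DESeq2 is named there without a version. In R 4.3.3, edgeR 4.0.16 scaled libraries by TMM, kept 20235 genes by filterByExpr and fitted 1 mean per group to all 8 libraries, and its two-sided quasi-likelihood F-tests were adjusted by Benjamini-Hochberg over all genes tested. Alternatives included DESeq2 1.42.0. The p-values measure the spread between libraries, which may be technical.

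The members and lists were chosen with earlier results of these data known. All 10 members are named, and in each of 21 other lists up to 4 genes with the smallest p among those past the threshold in a comparison. One gene among those nearest to Pi16 is not reported here.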

Additional observations from a re-analysis of the deposited data

Results flagged for a closer look

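The CFA response differed between the genotypes in opposite directions for 2 of the fibroblast genes. For Eln, both WT CFA libraries lay below both WT vehicle libraries and both iKO CFA libraries above both iKO vehicle libraries, with a response larger in iKO by 3.43 on the log2 scale. For Fbn1 the pattern was the same, with 2.05. Both values are descriptions and no test of the difference is given, because it contains the CFA response in iKO, the contrast from which Eln and 2 others of the 10 genes were picked. Of all genes, 30.8% had both CFA libraries below both vehicle libraries in WT, and 33.9% had them above in iKO. The share with both was not counted. The fall in WT was measured against the WT vehicle libraries, which stood apart, and that of Fbn1 did not pass (adjusted p = 0.0552, edgeR).

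Among companion genes the calls of edgeR's interaction test went both ways. In the adventitial list 9 were higher and 2 lower, and in the bone and cartilage list 1 and 2. Neuron genes had 0 and 5, and endoneurial genes 0 and 1. Of all genes 6.19% were higher and 3.17% lower. The genes named here are all from the higher side, where the difference between both responses passed. It was 3.86 ± 0.41 for Adamts10 (adjusted p = 0.00241), 3.40 ± 0.57 for Emilin2 (0.0116), 2.97 ± 0.58 for Loxl2 (0.0208) and 1.68 ± 0.37 for Ltbp1 (0.0310), genes of elastic fibre assembly. It was 2.93 ± 0.33 for the collagen gene Col5a3 (0.00318), 2.28 ± 0.50 for the proteoglycan gene Aspn (0.0290) and 2.98 ± 0.49 for Sfrp4 (0.0112). In other cell types it was 2.58 ± 0.24 for the endothelial Vwf (0.00176), 4.49 ± 0.75 for Fabp4 of fat and endothelium (0.0119) and 3.16 ± 0.82 for the meningeal Slc47a1 (0.0475). Adamts10 and Col5a3 were high in WT vehicle alone, with Adamts10 at 17.8 and 16.5 CPM against 1.18 to 4.33 CPM elsewhere. Leaving out 1 WT vehicle library keeps the other, which also stood apart. Without WT vehicle library 1, Adamts10, Col5a3 and Vwf kept their calls, and Emilin2 (0.0684), Loxl2 (0.115), Ltbp1 (0.142), Aspn (0.139), Sfrp4 (0.0579), Fabp4 (0.0673) and Slc47a1 (0.177) lost them. Without iKO CFA library 2 the same 7 lost theirs (0.0506 to 0.160), and some did without other libraries.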

How the results depend on the processing

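With CFA in WT 1 member was called. The count was 2 in DESeq2, without a filter on low counts and with legacy = FALSE in edgeR, 0 with only the groups compared and 0 with the replicate block, and 0 to 6 when 1 library was left out. With CFA in iKO 3 were called. The count was 10 in DESeq2 and with only the groups compared, 5 without a filter, 0 with the replicate block, 0 to 10 when 1 library was left out, and 0 without both WT vehicle libraries, a setting chosen after seeing the data. These counts include Eln, Pi16 and Clec3b, for which the report gives no test except with CFA in WT. For iKO against WT under vehicle 2 (Fbn1 and Eln) were called, 4 with only the groups compared and 0 to 5 with 1 library left out. Under CFA 4 (Fbln1, Pi16, Eln and Clec3b) were called, 1 with only the groups compared and 1 to 8 with 1 library left out. The interaction had 4, and 2 to 9 with 1 library left out. The cause was not tested. With only the groups compared, 45.3% of all genes passed with CFA in iKO and 4.04% with CFA in WT. For iKO against WT that setting called 42.9% under vehicle and 0.183% under CFA. DESeq2 called 17.0% of all genes with CFA in iKO and 25.5% with CFA in WT. Without a filter on low counts the shares were 1.98% and 12.8%. Counts over all genes moved too: 3406 with CFA in WT against 754 with only the groups compared and 259 without WT vehicle library 1, and 8 with CFA in iKO against 8309 with only the groups compared.

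Same-numbered libraries deviated together with correlations of -0.144 to 0.027, so no pairing by number was seen. With 2 libraries per group these correlations cannot exclude one. The replicate block also moved the calls over all genes from 3406 to 2524 with CFA in WT, from 8 to 0 with CFA in iKO and from 1895 to 1062 for the interaction.

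Of 710 alternative values of members, 572 kept direction and side of the threshold, 58 lost the call, 68 gained one and 12 turned direction, all on leaving out a library. Outside CFA in WT, nothing is read from the calls of Eln, Pi16 and Clec3b among these values. When 1 library was left out, CFA in WT gave -0.34 to 0.20 for Pi16 (0.15 without WT vehicle library 2), -0.21 to 1.09 for Dcn, -0.60 to 0.82 for Lum (-0.03 without WT vehicle library 2) and -0.38 to 0.10 for Pdgfra. Under vehicle Pi16 was at -0.0062 to 0.36. Under CFA Dcn was at -0.090 to 1.21, Lum at -0.76 to 0.66 and Cd34 at -0.17 to 0.25 (-0.06 without iKO CFA library 2). The low ends under CFA came without WT CFA library 1, the turned values of Dcn and Lum with CFA in WT and of Lum under CFA without WT CFA library 2. Of 797 values of companion genes, 600 kept the call and 197 lost it, and 0 turned.

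Depth limits Dpt most, with 0 to 25 reads outside iKO CFA.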
